A study of Mus musculus with 7 samples.

Results

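Fos binding around 8 marker genes of microglia, the resident immune cells of the brain, was described in hippocampal chromatin of mice given saline or kainic acid. The 8 genes were Cx3cr1, P2ry12, Csf1r, Trem2, Tmem119, Itgam, Aif1 and C1qa, taken by name, and they are 8 of 21883 protein-coding genes in the gene table used. Every peak that touched the span of a gene or the 50 kb on either side of it was taken, which gave 60 peaks, 56 of them from kainic acid libraries and 4 from saline libraries. The windows cover 0.968 Mb in all.

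The animals were wild-type C57BL/6J mice, 2 months old. The saline group had 3 libraries of chromatin immunoprecipitation followed by sequencing (ChIP-seq) with an antibody against Fos. The kainic acid group also had 3, from mice that received 10 mg/kg into the peritoneum in 2 injections 30 min apart, reached seizures of level 4 and were killed 1 hour after the first injection. Kainic acid is a glutamate receptor agonist that provokes seizures. The number of animals behind each library is not stated, so the spread between libraries may be technical in part. One input library of saline chromatin carries no antibody and has no peak list among the files used here. Whole hippocampal tissue was used, so the share of cells that hold a site and the occupancy of the site in each cell cannot be told apart, and no measurement here says which cell type a peak came from. RNA was not measured, so the marker genes could not be checked as expressed.

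Fos pairs with a Jun protein to form AP-1, a transcription factor that binds the sequence TGACTCA and that neurons make rapidly after strong activity. Microglia are best known for surveying the tissue, taking up debris and pruning synapses. Several of their markers are receptors that read signals of neurons, such as the chemokine fractalkine or extracellular ADP. AP-1 is used in many cell types, including myeloid cells, and a peak near a gene does not by itself tie the site to that gene.

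The lists differ greatly in length. Kainic acid replicates 1, 2 and 3 hold 15009, 63197 and 29650 peaks, and saline replicates 1, 2 and 3 hold 7, 3277 and 2. A site absent from a list may still be bound below the calling threshold. Overlapping peaks of the 6 lists were merged into regions, and a region that 2 or 3 of the kainic acid libraries support is called shared.

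After kainic acid, peaks were called near all 8 genes, beside 78.0% of all protein-coding genes, and near 7 of them at least 1 region was shared between kainic acid lists. Csf1r was the exception, with no shared region. Kainic acid replicates 1, 2 and 3 had 7, 32 and 17 peaks in the 8 windows, a mean of 18.7 ± 12.6 (SD, n = 3). Saline replicates 1, 2 and 3 had 0, 4 and 0, a mean of 1.33 ± 2.31 (SD, n = 3). Every kainic acid library was above every saline library, and the lowest kainic acid count (7) was close to the highest saline count (4). On the scale log10(number of peaks + 1) kainic acid averaged 1.23 ± 0.309 (SD, n = 3) against 0.233 ± 0.404 (SD, n = 3) for saline, a difference of 0.993 that exceeded the SD of either group. An exact permutation test (two-sided, 20 assignments) gave p = 0.1, and no smaller p is possible with 3 libraries a group.

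Seen as a share of each list, the order turned. The windows held 4.66, 5.06 and 5.73 of every 10000 peaks in kainic acid replicates 1, 2 and 3, a mean of 5.15 ± 0.541 (SD, n = 3). In saline replicate 2 they held 12.2 of every 10000, with a 95% Clopper-Pearson interval of 3.33 to 31.2. That interval covers counting error only, rests on 4 peaks and includes the 3 kainic acid values. The number of peaks near these genes thus moved with the length of the lists, and the part of list length in the difference between groups was not tested. Saline replicates 1 and 3 hold too few peaks to give a share.

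**Figure D1:**
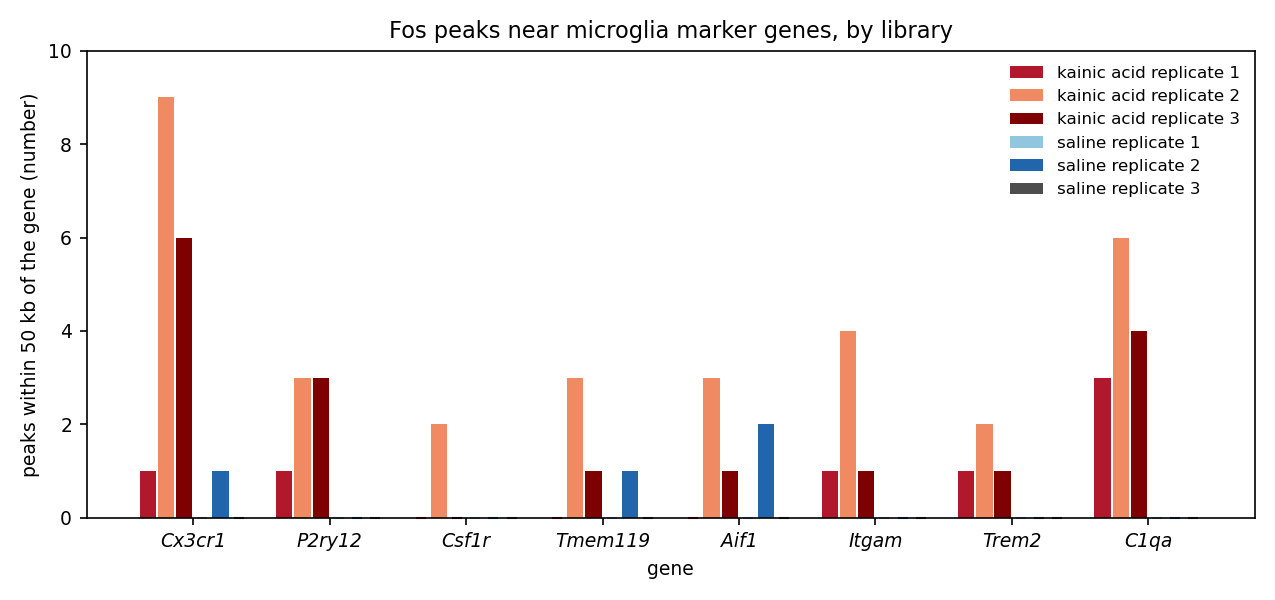
Number of Fos peaks within 50 kb of each gene (vertical axis) in the 6 libraries, with 1 bar per library, red shades for kainic acid and blue or grey for saline, and a tick on the axis for 0. Kainic acid replicate 2 has the highest bar, alone or tied, at all 8 genes, up to 9 at Cx3cr1, and the only saline bars belong to saline replicate 2.

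In each kainic acid library and in saline replicate 2, the share of these genes reached was somewhat above that of all protein-coding genes. The difference was not tested. Kainic acid replicate 1 had a peak in 5 of 8 windows, against 46.3% of all protein-coding genes. In kainic acid replicate 2 it was 8 of 8, against 77.4%, and in kainic acid replicate 3 it was 7 of 8, against 63.3%. Saline replicate 2 had a peak in 3 of 8 windows, against 30.2%, and saline replicates 1 and 3 in 0 of 8, against 0.032% and 0.0%. The 7 of 8 genes with a shared region stand beside 62.7% of all protein-coding genes, and the 5 of 8 with a region in all 3 kainic acid lists (Cx3cr1, P2ry12, Itgam, Trem2 and C1qa) stand beside 42.5%. Among the 17396 protein-coding genes no longer than Itgam, the longest of the 8, 57.7% had a shared region. With only 8 genes, shares that close to the background are no result about microglial genes.

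The density of shared regions divides their number by the length of the window. At counts as low as 1 it still depends on that length. Its median over the 8 genes was 0.948 per 100 kb, from 0 at Csf1r to 5.02 at Cx3cr1. Over all protein-coding genes the median was 0.871 per 100 kb, and the middle 50% of genes lay between 0 and 1.93. How near the 2 medians lay depended on the setting. When 1 kainic acid list was left out, a shared region had to be in both lists that remained. Without kainic acid replicate 2, and likewise without replicate 3, the median was 0.662 over the 8 genes and 0 over all genes. Of all genes, 42.6% and 45.1% then had a shared region. With a reach of 20 kb the medians were 1.91 and 0, and 47.8% of all genes had a shared region. The difference between the medians was not tested. The order from the highest was Cx3cr1 (5.02 per 100 kb), C1qa (2.91), P2ry12 (2.04), Aif1 (0.951), Trem2 (0.945), Tmem119 (0.937), Itgam (0.642) and Csf1r (0). Aif1, Trem2, Tmem119 and Itgam have 1 shared region each, so their order reflects window length only. The median of the 8 lies between Aif1 and Trem2, so its exact value also depends on window length. Cx3cr1, C1qa and P2ry12 lay above the upper quartile of all genes. Without kainic acid replicate 2 or without replicate 3, Cx3cr1 and P2ry12 had 1 shared region each and C1qa had 3. These only repeat the counts of regions in all 3 lists, because the other shared regions of these genes were in replicates 2 and 3 only. They are therefore no separate check of stability.

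**Figure D2:**
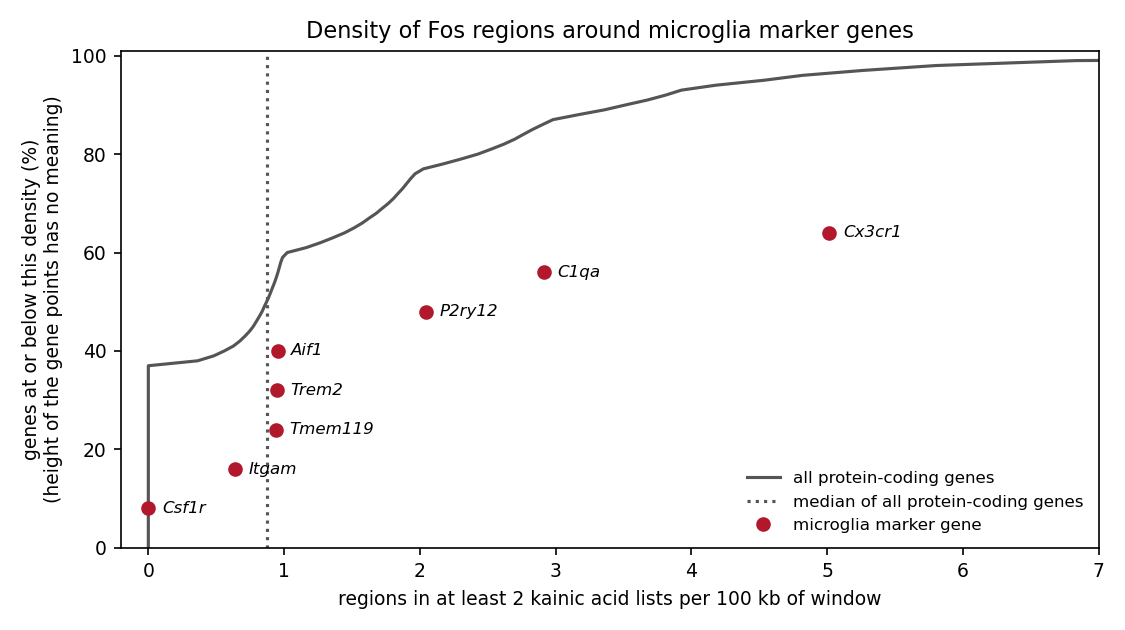
Shared regions per 100 kb of window (horizontal axis) for the 8 genes, as red points whose height has no meaning, over the cumulative curve of 21883 protein-coding genes, with its median as a dotted line. Aif1, Trem2 and Tmem119 sit just right of the median of 0.871, and Cx3cr1 is farthest right at 5.02.

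The first 4 genes encode receptors. Cx3cr1 (gene ID 13051, chromosome 9, 120048683 to 120068296, minus strand, GRCm38 like all positions here) encodes the receptor for fractalkine, a chemokine that neurons display. Its window held 1, 9 and 6 peaks in kainic acid replicates 1, 2 and 3 and 0, 1 and 0 in saline replicates 1, 2 and 3. Of its 6 shared regions, 5 lay downstream of the gene, between 24.3 and 46.8 kb from it, and the nearest protein-coding gene of those 5 was Xirp1, which encodes an actin-binding protein of muscle. The strongest, chr9:120008928-120009941, was in all 3 kainic acid lists, with a fold over local background of 5.96, 13.7 and 7.84 in replicates 1, 2 and 3. These folds held percentile ranks of 16.9, 1.80 and 5.04, counted from 0 at the top of each list. The 3 summits lay within 49 bp of each other. The only shared region upstream of Cx3cr1 (13.8 kb away, nearer to the chemokine receptor gene Ccr8) ranked at 12.3 in replicate 2 but at 92.2 in replicate 3, and replicate 1 had no peak there. A peak inside Cx3cr1 itself was called in kainic acid replicate 2 only, from 13 reads over the summit.

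P2ry12 (gene ID 70839, chromosome 3, 59216271 to 59262985, minus strand) encodes the ADP receptor that steers microglial processes towards injury. The gene lies inside the much longer Med12l, a Mediator subunit gene, and its 3 shared regions all lay in Med12l. Kainic acid replicates 1, 2 and 3 had 1, 3 and 3 peaks in the window and no saline library had any. All 3 regions sat at the outer edge of the window, 47.0 and 48.7 kb downstream and 49.2 kb upstream of P2ry12, so a reach of 20 kb left none. The region at chr3:59166961-59168213 was in all 3 kainic acid lists, with folds of 4.89, 7.87 and 5.44 at percentile ranks of 34.3, 11.2 and 19.5 in replicates 1, 2 and 3.

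Csf1r (gene ID 12978, chromosome 18, 61105572 to 61131139) encodes the receptor for colony stimulating factor 1, on which microglia depend for survival. It was the member without a shared region. Kainic acid replicate 2 alone had 2 peaks in its window, and the other 5 libraries had 0. One of these peaks lay inside Csf1r (chr18:61108680-61109134, fold 4.68, 23 reads, rank 42.4). The other, 49.2 kb away, lay inside the neighbouring receptor gene Pdgfrb with 13 reads and a rank of 70.3. With a reach of 100 kb Csf1r gained 1 shared region.

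Trem2 (gene ID 83433, chromosome 17, 48346401 to 48352276, plus strand) encodes a lipid-sensing receptor of microglia that promotes uptake of debris. It had a single shared region, and by the mean rank over the kainic acid lists that region was the highest of all 16 near the 8 genes. In replicate 2 alone the strongest Cx3cr1 region ranked above it. The site, chr17:48326494-48327389, was called in all 3 kainic acid lists with folds of 8.45, 12.95 and 8.94 in replicates 1, 2 and 3. The percentile ranks were 3.83, 2.22 and 2.95, and 37, 47 and 44 reads covered the summit. All 3 libraries therefore placed it among the strongest 10% of their peaks, and their summits lay within 39 bp of each other. No saline library had a peak in the window. The site lies 19.3 kb upstream of Trem2, and the nearest protein-coding gene is B430306N03Rik, whose span ends 601 bp from the summit.

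The Trem2 promoter is shown because the site with the best mean rank is not at it: the nearest peak of any library was 18.8 kb from these 300 bases, which run from 250 bases before to 50 after the start of transcription (RefSeq, GRCm38.p6, chr17:48346151-48346450, plus strand). The bases are in lower case throughout because no part of them lies under a peak.

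Trem2 promoter: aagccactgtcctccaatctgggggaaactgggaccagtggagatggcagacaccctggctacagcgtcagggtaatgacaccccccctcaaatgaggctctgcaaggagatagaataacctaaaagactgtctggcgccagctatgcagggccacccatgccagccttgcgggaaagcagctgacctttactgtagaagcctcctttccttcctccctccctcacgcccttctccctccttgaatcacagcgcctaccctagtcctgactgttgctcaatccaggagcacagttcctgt

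Promoter sequences were at hand for 5 of the 8 genes, Cx3cr1, P2ry12, Aif1, Itgam and Trem2. None of the 5 had a peak of any library on it. The share of all promoter sequences with a peak is not given here, so this is no result about the markers. The distance to the nearest peak was 10.1 kb at Aif1, 13.2 kb at Cx3cr1, 18.8 kb at Trem2, 20.7 kb at Itgam and 48.8 kb at P2ry12. None held the AP-1 motif TGACTCA. Read on the opposite strand, this motif is TGAGTCA, which was absent as well. Of 32544 promoter windows of the same length, 5.19% hold it in one of the orientations. None held the related motif TGACGTCA, its own reverse complement, which 1.80% hold. The absence of these letters describes only these windows.

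Tmem119 and Itgam encode membrane proteins used to label microglia. Tmem119 (gene ID 231633, chromosome 5, 113793729 to 113800396) had 0, 3 and 1 peaks in kainic acid replicates 1, 2 and 3 and 0, 1 and 0 in saline replicates 1, 2 and 3. The saline and kainic acid libraries thus overlapped in number at this gene. Its shared region (chr5:113773747-113774272) lay 19.9 kb away inside Iscu, a gene for assembly of iron-sulphur clusters. It had folds of 8.55 and 4.03 in replicates 2 and 3, at percentile ranks of 8.88 and 48.7, and no peak in replicate 1.

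Itgam (gene ID 16409, chromosome 7, 128062640 to 128118491, plus strand) encodes the integrin subunit CD11b. It was the only 1 of the 8 genes with a shared region inside its own span, against 28.5% of all protein-coding genes. That region, chr7:128098120-128098740, was in all 3 kainic acid lists but ranked low, at 75.9, 47.7 and 70.2 in replicates 1, 2 and 3, with folds of 3.72, 4.51 and 3.53 and 19, 26 and 26 reads. Whether it is exonic or intronic is not given by the gene table. Kainic acid replicate 2 had 2 more peaks inside the gene and another 508 bp past its end (rank 17.2), none of which the other lists shared. No saline library had a peak in the window.

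Aif1 (gene ID 11629, chromosome 17, 35170986 to 35176083, minus strand) encodes the actin-bundling protein Iba1, the usual stain for microglia. It sits in the gene-dense major histocompatibility complex, and its window touches 11 other protein-coding genes, among them Tnf, Lta and Ltb. Kainic acid replicates 1, 2 and 3 had 0, 3 and 1 peaks there and saline replicates 1, 2 and 3 had 0, 2 and 0, so the groups overlapped. The 1 shared region (chr17:35163377-35163789) lay 7.37 kb downstream of Aif1 inside Prrc2a and was weak, with folds of 3.47 and 4.07 in replicates 2 and 3 at ranks of 83.2 and 47.7. With −log10 q of at least 5 no shared region was left at Aif1. No peak of any library had its summit inside Aif1 or nearest to Tnf.

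C1qa (gene ID 12259, chromosome 4, 136895916 to 136898844) encodes a chain of C1q, the secreted protein that starts the classical complement cascade and tags synapses for removal. Its neighbours C1qb and C1qc encode the other chains and share its window. Kainic acid replicates 1, 2 and 3 had 3, 6 and 4 peaks and the saline libraries had none. This was the one gene with more than 1 region in all 3 kainic acid lists: it had 3 such regions, all at higher coordinates, 9.07, 13.1 and 27.3 kb from C1qa on the side of Epha8, an ephrin receptor gene.

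The region at chr4:136911549-136912393 had folds of 5.60, 10.1 and 3.92 in replicates 1, 2 and 3, at ranks of 20.8, 5.26 and 53.4. That at chr4:136907603-136908719 ranked at 66.9, 14.6 and 9.55. That at chr4:136925349-136926731 ranked at 96.2, 14.5 and 8.33. The last was therefore among the strongest 10% of peaks in replicate 3 and close to the weakest in replicate 1. C1qa still had 3 shared regions when peaks needed a −log10 q of at least 10 and when the kainic acid lists were cut to equal length, settings under which Aif1 and Itgam had no shared region.

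**Figure D3:**
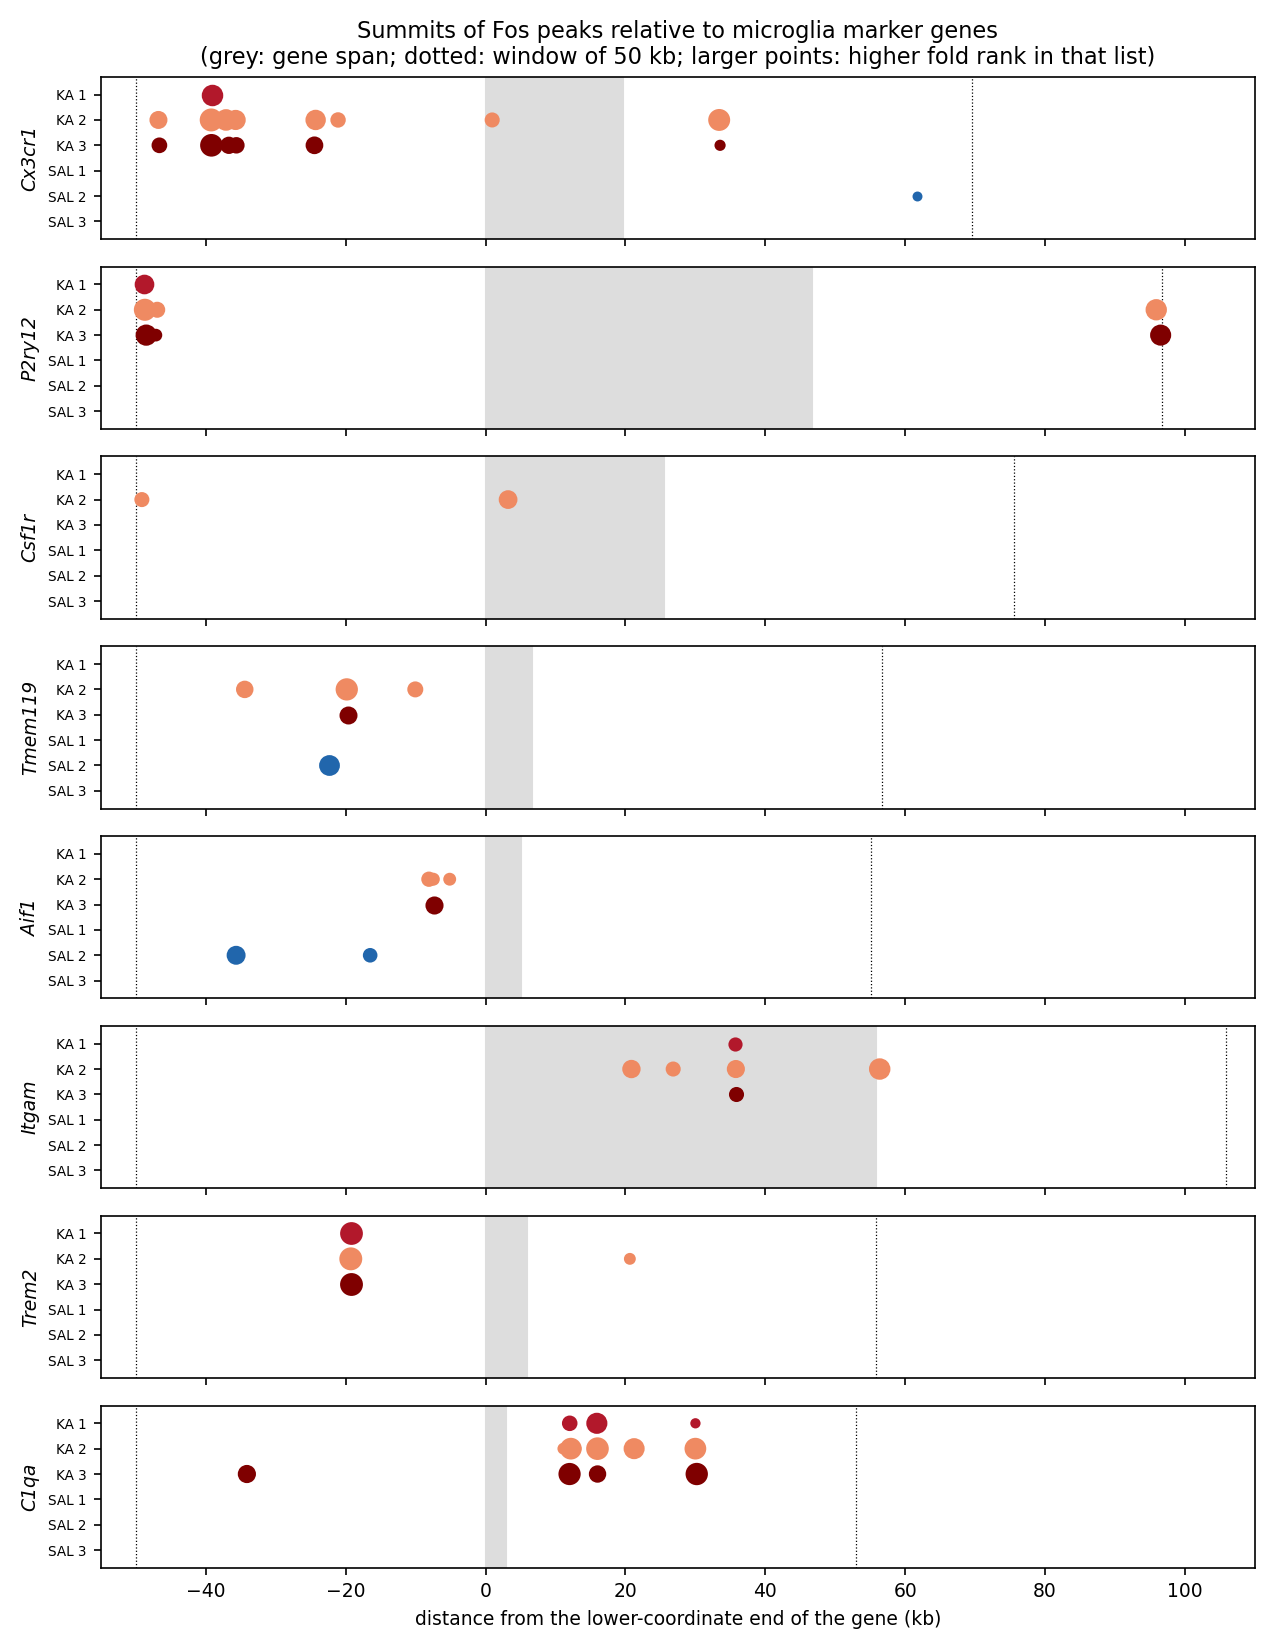
Positions of peak summits in the 6 libraries (rows: KA for kainic acid, SAL for saline, with the replicate number) relative to each gene, in kb from its lower-coordinate end; grey is the gene span, dotted lines are the 50 kb limits and larger points have a higher fold rank in their list. Most summits lie outside the gene spans, the 3 points at Trem2 line up 19.3 kb below the gene, and P2ry12 has points at the window edges only.

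Replicate support near these genes was close to that over the genome. Of 32 regions with a kainic acid peak in the windows, 7 were in all 3 lists, 9 in exactly 2 and 16 in 1, so 50.0% were shared. Of all 66683 regions with a kainic acid peak, 40.3% were shared. All 9 regions in exactly 2 lists were those of replicates 2 and 3, and 15 of the 16 in 1 list were those of replicate 2, the longest list. Each of the 16 shared regions thus had peaks in both replicates 2 and 3. With 1 of these lists left out, a region had to be in both that remained. Without kainic acid replicate 2 or without replicate 3 the number of shared regions was therefore 7, the regions in all 3 lists.

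Ranks of shared regions varied widely between libraries. The median percentile rank of the shared regions near the 8 genes was 34.3 (7 regions), 15.3 (16 regions) and 49.8 (16 regions) in kainic acid replicates 1, 2 and 3. Over all 26862 shared regions the medians were 47.2, 24.3 and 44.8. The values near microglial genes were thus higher in the list in replicates 1 and 2 and lower in replicate 3, and the difference was not tested. The mean rank over lists ran from 3.00 at the Trem2 site to 74.0 at the weaker P2ry12 site.

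**Figure D4:**
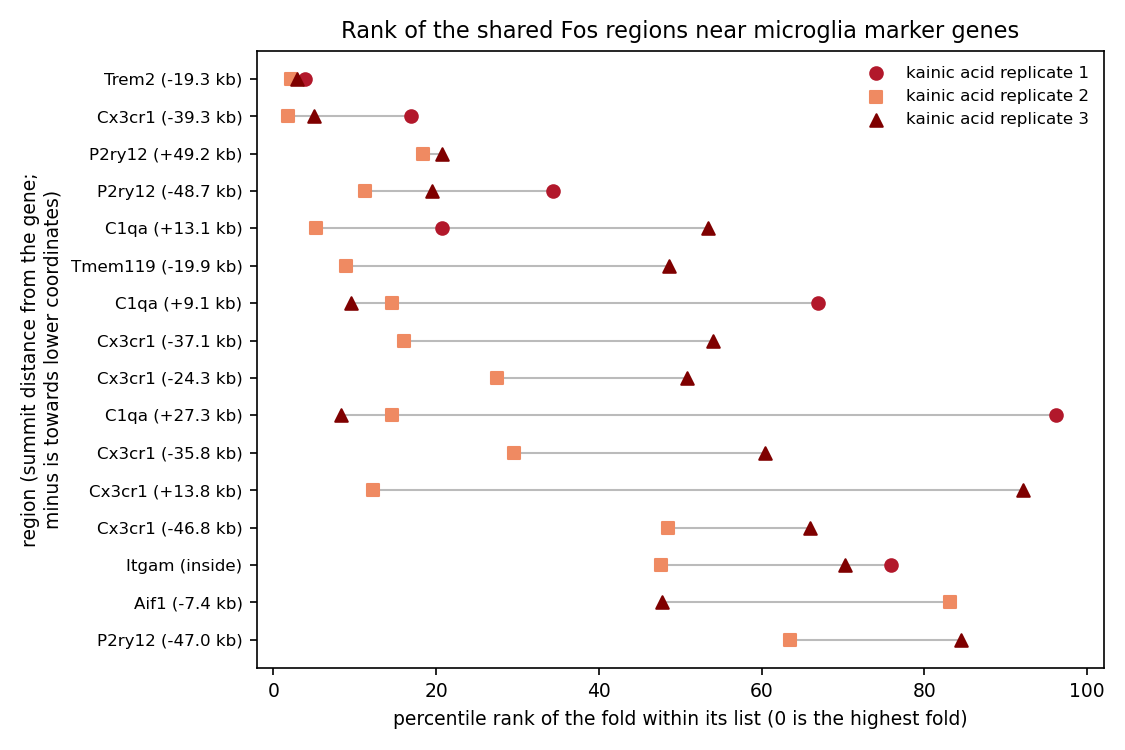
Percentile rank of fold (horizontal axis, 0 at the top of a list) of the 16 shared regions in each kainic acid library, with a grey line from the lowest to the highest, sorted by the mean. The Trem2 site has all 3 points under 4, while the C1qa site 27.3 kb away runs from 8.33 to 96.2.

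In saline, the 4 peaks of replicate 2 lay at other places than the kainic acid peaks. None of the 16 shared regions had a saline peak, and neither did any of the 16 regions in 1 kainic acid list. Of all shared regions in the genome 2.01% had one, so 0 of 16 shared regions is no departure from the background. No such share is given here for regions in 1 list, or for all 3277 peaks of saline replicate 2. The places of the 4 saline peaks are therefore no result about these genes. The saline peaks were at chr9:120110280-120110494 (Cx3cr1 window, inside Slc25a38, fold 2.85), chr5:113771113-113771591 (Tmem119 window, inside Sart3, 4.74), chr17:35135135-35135460 (Aif1 window, inside Bag6, 4.32) and chr17:35154385-35154586 (Aif1 window, inside Prrc2a, 3.69). Their percentile ranks in that list were 97.5, 23.7, 40.7 and 73.3. Because of the Cx3cr1, Tmem119 and Aif1 windows, only P2ry12, Itgam, Trem2 and C1qa had both a shared kainic acid region and no saline peak in reach, 4 of 8 against 36.7% of all protein-coding genes.

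Among the 60 peaks, 2 overlapped a promoter sequence that was at hand, and both were saline peaks at genes other than the markers. The share of all peaks of each list that overlap a promoter sequence is not given here. These 2 peaks are therefore no result about saline peaks. The promoters of Csf1r, Tmem119 and C1qa were not at hand, so peaks on them could not be seen. The 2 promoters are shown because they are where the saline peaks of the Cx3cr1 and Aif1 windows sit. They belong to Slc25a38, a mitochondrial glycine carrier gene (chr9:120110132-120110431, plus strand), and Bag6, a chaperone gene (chr17:35134963-35135262, plus strand), both from RefSeq, GRCm38.p6. Capitals mark the bases under the peak.

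Slc25a38 promoter: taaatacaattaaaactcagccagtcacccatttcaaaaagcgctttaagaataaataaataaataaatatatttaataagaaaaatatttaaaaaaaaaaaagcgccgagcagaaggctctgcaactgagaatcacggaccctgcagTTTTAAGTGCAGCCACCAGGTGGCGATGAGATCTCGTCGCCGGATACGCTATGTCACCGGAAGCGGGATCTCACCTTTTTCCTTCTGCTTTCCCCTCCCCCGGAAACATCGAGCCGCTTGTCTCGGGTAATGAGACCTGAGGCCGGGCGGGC

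Bag6 promoter: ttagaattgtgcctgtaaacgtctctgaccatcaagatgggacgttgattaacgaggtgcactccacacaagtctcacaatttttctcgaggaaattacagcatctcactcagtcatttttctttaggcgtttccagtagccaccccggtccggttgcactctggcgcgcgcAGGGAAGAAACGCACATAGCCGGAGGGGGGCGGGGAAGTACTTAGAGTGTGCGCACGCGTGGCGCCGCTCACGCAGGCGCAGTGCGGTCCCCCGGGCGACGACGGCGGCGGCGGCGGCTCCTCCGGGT

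Neither sequence holds either of the motifs searched above, on any strand. The peaks covered 152 and 128 of their 300 bases, at the side of the transcription start, and the GC content of the 300 bases was 45.3% in Slc25a38 and 59.3% in Bag6.

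The marker was the nearest protein-coding gene for 3 of the 16 shared regions, the one inside Itgam and the C1qa regions at 9.07 and 13.1 kb. The median distance of a shared region from its marker was 25.8 kb, and 7 of 16 lay more than 30 kb away. Most of each window lies outside the gene, up to 50 kb from it. No such values are given here for the windows of other genes, so these are no result about the 8 markers. Within 10 kb a shared region was found at 3 of 8 genes (Aif1, Itgam and C1qa), against 40.0% of all protein-coding genes.

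A wider list of 36 genes, named for microglial identity, lysosomes, complement and disease-associated states or disease risk, was described in the same way. RNA was not measured, so none of the 36 was checked as expressed in microglia, and some may act mainly in other cells. A shared region lay within 50 kb of 28 of the 36 (77.8%), beside 62.7% of all protein-coding genes. Within 10 kb it was 15 of the 36, beside 40.0%. The median density was 1.23 per 100 kb, beside 0.871 for all. The 5 genes with the highest density were Inpp5d, a lipid phosphatase of immune signalling (4.50 per 100 kb), C1qb (3.77), Selplg, a selectin ligand (3.49), Bin1, a membrane-bending protein (3.14), and Axl, a receptor kinase for dying cells (3.02). C1qb and Selplg lie in the C1qa and Tmem119 windows, as do C1qc and P2ry13 in member windows, so 4 of the 36 are not separate evidence. The other end held 8 genes with no shared region. Among them are Sall1 and Irf8, transcription factors of microglial and macrophage identity. Runx1 and Spi1, transcription factors of the same list, had 4 and 2 shared regions. These 4 were named after their values were seen.

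Marker lists of other hippocampal cell types, 8 genes each, were counted in the same way. A shared region lay within 50 kb of 6 of 8 astrocyte markers, 6 of 8 endothelial markers and 5 of 8 dentate granule cell markers, with median densities of 0.996, 0.652 and 1.83 per 100 kb. Inside the gene span a shared region was found at 1 of 8 microglial, 6 of 8 astrocyte, 4 of 8 endothelial and 4 of 8 granule cell markers, beside 28.5% of all protein-coding genes. The spans differ, with medians of 13.1, 17.4, 56.0 and 45.4 kb in that order and 17.2 kb for all protein-coding genes, and a longer gene has more room for a peak. Of the wider list of 36 microglial genes, 11 had a shared region inside the span, and their median span was 20.9 kb. These differences between lists were not tested.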

How the data were processed

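Fos ChIP-seq peak lists of 6 libraries were used, 1 list per library and none pooled. Per the submitters' processing notes, the tools were Trim Galore 0.6.4, Bowtie2 2.3.4.3, MACS2 and deepTools 3.5.0, and the build was mm10. Per the file contents, alignments were filtered at mapping quality 30. The control library and the cutoff are not given in the sources used here. The deposited columns give a fold, which is the linear ratio of a peak's pileup to local background. They also give a −log10 p and a −log10 q per peak. The deposited score is 10 times the −log10 q, rounded down, and was not used further. None is scaled between libraries, so folds were only ranked within a list. No read totals come with the lists, so depth is unknown.

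Peaks were merged at 1 bp of overlap and assigned to RefSeq gene spans (GRCm38.p6) extended by 50 kb. Reads over a summit were solved from fold = (k + 1)/(λ + 1) and the Poisson p for 60 of 60 peaks. The tolerance in −log10 p was 0.001, widened in proportion to −log10 p for stronger peaks. Distances to genes are from summits, and those to promoter sequences are from the nearer edge of the peak. Python 3.11.15, numpy 2.4.6, pandas 2.3.3 and scipy 1.17.1 were used, and merging, counting and solving were tested on simulated data. The background is every protein-coding gene of the table, counted the same way. All 8 members were named, with the 5 densest genes of the wider list and genes in member windows or next to member peaks. Sall1, Irf8, Runx1 and Spi1 of the wider list were also named, after their values were seen. Members and lists were chosen with earlier results of these data known. Peak numbers were compared between groups with a two-sided exact permutation test, and the alternatives were other reaches, thresholds, overlap rules and left-out libraries.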

Additional observations from a re-analysis of the deposited data

How the results depend on the processing

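The difference in log10 number of peaks near the 8 genes kept its direction at each reach and threshold run, and from 0.846 to 1.23 when each library was left out in turn. With 3 libraries a group that test could not reach significance, and its p carries no information on stability. Counted per 10000 peaks of a list it reversed, to −7.05 (kainic acid minus saline replicate 2, no test). The number of shared regions, 16, was 1 inside the gene spans, 3, 7 and 30 at reaches of 10, 20 and 100 kb, 7 with −log10 q of at least 10, 9 with equal numbers of kainic acid peaks, 7 in all 3 lists and 32 in any list. It ran from 7 to 16 with 1 library left out. With a kainic acid list left out, both others had to hold the region, so the 7 repeats the count in all 3 lists. The number of genes with a shared region, 7, was 1 inside the spans, 3 at 10 kb and 4 at the stricter q of 10, and ran from 5 to 7 with 1 library left out. The median density over the 8 genes, 0.948 per 100 kb beside 0.871 for all genes, was 2.69 beside 2.70 for regions in any list and 1.298 beside 0.948 at 100 kb. It was 1.91 at 20 kb, 0.941 with equal numbers of peaks, 0.662 in all 3 lists and 0.418 with −log10 q of at least 10, each beside 0 for all genes. The 0 arises because most genes then had no such region. In that order, 47.8%, 47.5%, 42.5% and 36.1% of all genes had one, beside 6, 5, 5 and 4 of the 8. The median density was 0 for the 8 genes and for all genes at 10 kb and inside the spans. With 1 library left out it ran from 0.662 to 0.948, and that of all genes from 0 to 0.871. Wider reaches and looser support count more regions by construction. For single genes, 44 of 144 values moved beyond 1.5 times, 33 to fewer and 11 to more, and 23 were 0. No saline peak met a shared region under any alternative run. The alternatives inside the spans and without both short saline lists (difference 0.527, no test) were chosen after seeing the data.

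Under the replicate block (same-numbered libraries as pairs) the difference stayed 0.993, and an exact sign-flip permutation gave p = 0.25, which is the lowest possible for 3 pairs. Correlations of deviations over the 8 genes were 0.818, 0.587 and −0.420 for numbers 1, 2 and 3. Saline replicates 1 and 3 hold no peak there and share 1 profile, so the numbers were not taken as pairs, and the labels do not say that they are.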
